A study of Mus musculus with 6 samples.

Results

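The genes described here are 46 homeobox and patterning transcription factors outside the Hox clusters, named in a list, of 20665 protein-coding genes on chromosomes 1 to 19 of the RefSeq gene table (GRCm38.p6, the assembly that mm10 names). Around each gene, every 1 kb tile that overlapped the gene span or the 20 kb on either side was taken, which gave 2794 tiles at 43 separate loci. Six2 with Six3, Dlx1 with Dlx2 and Dlx5 with Dlx6 share part of their windows, so the values of these 6 genes are not independent. The samples are endothelial cells, the lining of blood vessels, sorted from mouse lung, whose cytosine methylation was read genome-wide after bisulfite conversion (T-WGBS, with libraries made by tagmentation). The groups were 3 samples with a Dnmt3a knockout genotype (KO) and 3 with the wild-type genotype (WT). The sources used here do not state the age, sex or strain of the mice, or how and in which cells Dnmt3a was deleted. The comparison asks where methylation around these genes differs when Dnmt3a, a de novo DNA methyltransferase, is absent.

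As background, homeobox genes encode transcription factors that bind DNA through a homeodomain, and many of them set the identity of organs, limbs and neurons in the embryo. In differentiated cells where they are not used, such genes are commonly held silent by Polycomb complexes, and they lie in wide stretches of DNA that carry almost no methylation, called methylation valleys or canyons. Dnmt3a is known to act at the borders of such valleys. The list holds Six2, Six3, Six6, LIM, Nkx, Dlx, Otx, Emx, En, Gbx, Pitx, Gsc, Alx, Msx and Barhl homeobox genes, the Pax genes, whose products share a paired domain and only partly a homeodomain, and the bHLH factors Olig2, Neurog1, Sim1 and Sim2.

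In each window, tiles with a mean level under 10% over the WT samples are called the core, and all other tiles the surrounding tiles. The core held 589 of the 2794 tiles (21.1%), against 1.38% of all 1954255 tiles of the table. A window held a median of 12 core tiles, against 2 over all 20450 genes with tiles, and 1.23% of those genes had 12 or more. The range among the 46 genes was wide, from 0 core tiles at Pax8 to 32 at Dlx6.

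Promoter sequences (250 bases before to 50 after a start site, RefSeq, GRCm38.p6) were matched for 37 of the 46 genes. Counting only the first promoter listed for each, 30 of these genes (81.1%) had 10 or more CpG sites, against 58.5% of 16457 genes. The median was 23 CpG sites against 14. Pax2, Otx2 and Barhl1 reached 10 only in a further promoter. Below are the promoters of the 3 genes whose promoter tiles were above 10% in WT (Pax8, Nkx6-2 and Pax5) and, for contrast, those of Lhx6 and Isl1, which were low in both groups while the gene around them differed. All lie on the minus strand and are printed 5′ to 3′, with each CpG dinucleotide in capitals.
Pax8 (chr2:24475550-24475849): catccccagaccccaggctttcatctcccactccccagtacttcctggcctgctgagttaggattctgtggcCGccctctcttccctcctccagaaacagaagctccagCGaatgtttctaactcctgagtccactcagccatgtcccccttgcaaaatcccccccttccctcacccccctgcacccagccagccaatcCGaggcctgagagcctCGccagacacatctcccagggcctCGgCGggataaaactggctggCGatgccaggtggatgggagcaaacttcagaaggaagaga
Nkx6-2 (chr7:139582748-139583047): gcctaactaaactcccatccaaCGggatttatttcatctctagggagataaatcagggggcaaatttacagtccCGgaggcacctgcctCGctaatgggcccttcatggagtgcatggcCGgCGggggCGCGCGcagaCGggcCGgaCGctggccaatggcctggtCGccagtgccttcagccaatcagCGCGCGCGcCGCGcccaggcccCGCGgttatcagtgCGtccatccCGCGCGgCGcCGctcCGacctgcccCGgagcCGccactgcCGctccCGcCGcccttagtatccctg
Pax5 (chr4:44710645-44710944): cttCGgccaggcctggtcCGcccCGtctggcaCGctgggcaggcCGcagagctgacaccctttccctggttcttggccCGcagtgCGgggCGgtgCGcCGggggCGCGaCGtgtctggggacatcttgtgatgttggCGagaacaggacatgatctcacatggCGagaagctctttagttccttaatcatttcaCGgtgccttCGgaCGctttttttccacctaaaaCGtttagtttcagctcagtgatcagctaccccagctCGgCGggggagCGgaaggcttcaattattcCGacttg
Lhx6 (chr2:36105359-36105658): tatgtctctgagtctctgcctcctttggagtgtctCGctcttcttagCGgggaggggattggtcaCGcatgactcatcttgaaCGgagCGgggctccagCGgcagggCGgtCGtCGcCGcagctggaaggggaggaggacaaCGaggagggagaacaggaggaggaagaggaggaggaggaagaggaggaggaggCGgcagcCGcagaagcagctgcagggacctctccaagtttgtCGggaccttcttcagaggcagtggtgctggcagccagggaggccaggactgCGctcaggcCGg
Isl1 (chr13:116309639-116309938): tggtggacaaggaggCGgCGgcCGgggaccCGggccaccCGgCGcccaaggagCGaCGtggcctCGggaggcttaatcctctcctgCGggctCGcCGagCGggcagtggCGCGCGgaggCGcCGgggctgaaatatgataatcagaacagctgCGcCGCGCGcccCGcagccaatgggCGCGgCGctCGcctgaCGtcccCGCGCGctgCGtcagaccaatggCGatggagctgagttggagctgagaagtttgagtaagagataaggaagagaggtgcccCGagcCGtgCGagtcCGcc

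Pax8, a Pax factor of kidney and thyroid development, had 7 CpG sites in its printed promoter. Few sites did not always go with a high level: Lhx8, with 4, was at 1.58% in WT, and Lhx9, with 6, at 4.36%. The tile that holds the Pax8 promoter was at 83.9, 73.6 and 70.2% in WT and at 5.04, 2.70 and 4.81% in KO. There was a wide gap between the lowest WT and the highest KO sample. The means were 75.9% ± 7.13 and 4.18% ± 1.29 (SD, n = 3 in each group, as for every ± here; limma, adjusted p = 1.99e-10). Nkx6-2, a factor of neural tube patterning and oligodendrocytes, has 32 CpG sites in its promoter, which lies across 2 tiles at a mean of 11.6% in WT and 7.77% in KO (smaller of the 2 adjusted p = 0.00767). Pax5, the B cell commitment factor, has 23 CpG sites there, and its tile was at 11.3% in WT and 6.30% in KO (adjusted p = 0.0420). The Lhx6 promoter printed above, with 16 CpG sites, was at 5.67% in WT and 0.675% in KO (adjusted p = 0.00496). The Isl1 promoter, with 37 CpG sites, was at 0.460% in WT and 0.762% in KO (adjusted p = 0.881). In WT, 34 of the 37 genes had a promoter mean under 10%, and in KO all 37 did. No share over all genes stands beside these counts, so whether they are unusual is not known. For a gene with several promoters, the one with the lowest mean over all samples was counted, which favours a low level. At Lhx6 the promoter counted is not the one printed above.

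Over all tiles the KO samples had a mean level of 63.7% ± 0.140 and the WT samples 69.0% ± 0.451, so a lower level in KO is the common case in this table. The files give levels without read counts, so the depth behind a value is unknown. The labels do not say whether samples came from separate animals, so each p-value is set against a spread between samples that may be technical only. In a bulk sample, a lower level in every cell and a change in the share of cells with a low level cannot be told apart. Promoter tiles of the endothelial markers were under 10% in WT at 6 of 9 matched genes, those of leukocyte markers at 0 of 7 (54.5 to 77.7%), those of epithelial markers at 1 of 8 and those of mesenchymal markers at 2 of 7. In KO the leukocyte marker promoters stood at 35.2 to 78.6%, and those under 10% were 7 endothelial, 0 leukocyte, 4 epithelial and 2 mesenchymal. Here too the promoter with the lowest mean was counted for each gene. The part of such cells in the results was not tested.

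The surrounding tiles were lower in KO at all 46 genes, with a median difference of -6.12 percentage points in the mean level of the tiles, against -5.91 points over all 20357 genes tested. Of the 46 genes, 29 (63.0%) passed the call of limma's adjusted p under 0.05 with a difference of at least 5 points, and 0 were higher (0 also at an unadjusted p under 0.05). The share over all genes was 59.7%, so the count of genes called was close to the background. Averaged over the 2205 surrounding tiles, the samples were at 53.0, 52.7 and 53.1% in KO and at 60.7, 60.1 and 59.5% in WT, with no overlap between the groups. In 45 of the 46 genes the KO samples all lay below the WT samples, Olig2 being the exception, and over all genes 86.9% showed this separation, so it is the common case.

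**Figure D1:**
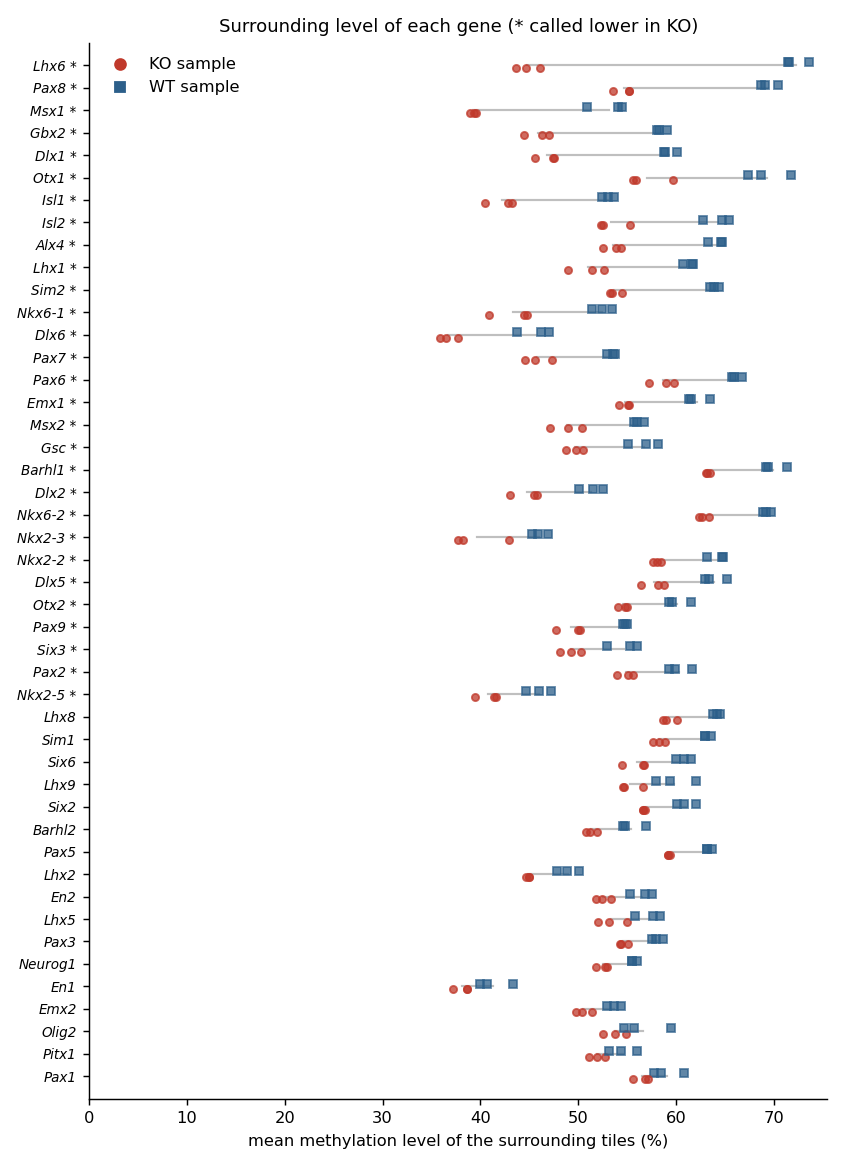
Mean methylation level of the surrounding tiles (x axis, percent) of the 46 genes (y axis), with one point for each KO (circles) and WT (squares) sample and a grey line between the group means. Genes are ordered by the difference, from -27.4 points (KO minus WT) at Lhx6 to -2.51 points at Pax1, and an asterisk marks the 29 genes called lower.

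LIM homeobox genes, whose products pair a homeodomain with LIM domains and specify neurons, held the gene with the largest fall. Lhx6, a factor of cortical interneurons (chromosome 2, 36081950 to 36105992, minus strand), had a surrounding level of 43.6, 44.7 and 46.1% in KO and 73.6, 71.6 and 71.5% in WT over 60 tiles. The groups stood far apart, with a difference of -27.4 points (SE 0.931, limma, adjusted p = 2.31e-10). Along 29 adjoining tiles (chr2:36075001-36104000) that cover most of the gene and lie beside the printed promoter, the level was 26.1% ± 0.998 in KO and 67.6% ± 2.28 in WT. Isl1, a factor of motor neurons and heart progenitors (chromosome 13, 116298270 to 116309688, minus strand), was at 40.5, 43.2 and 42.8% in KO and 53.7, 53.1 and 52.5% in WT (difference -10.9 points, SE 1.02, adjusted p = 2.32e-07). The largest difference lay in the gene itself: a run of 7 tiles (chr13:116298001-116305000) was at 5.41, 6.42 and 7.60% in KO and at 38.5, 43.2 and 37.2% in WT. Isl2, its motor neuron relative on chromosome 9, was at 52.5, 52.4 and 55.3% in KO and 65.4, 64.7 and 62.8% in WT (difference -10.9 points, adjusted p = 2.16e-07). Of the 8 LIM genes, 4 were called, with a median difference of -7.64 points, and Lhx2, Lhx5, Lhx8 and Lhx9 stayed under 5 points.

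Pax8 (chromosome 2, 24420551 to 24475599, minus strand) came next, with a surrounding level of 53.6, 55.2 and 55.2% in KO and 70.4, 69.2 and 68.8% in WT over 91 tiles (difference -14.8 points, SE 0.804, limma, adjusted p = 2.14e-09). A run of 10 tiles at its start (chr2:24467001-24477000), which holds the promoter shown above, was at 18.7% ± 0.855 in KO and 58.6% ± 0.834 in WT. In WT the window had no core tile. In KO 5 neighbouring tiles at the start of the gene were under 10%, as the plot of tile levels around 6 genes shows. Pax1, which patterns the vertebral column and thymus (chromosome 2, 147361930 to 147375049, plus strand), was at the other end of the family and of all 46 genes. Its surrounding level was 56.9, 55.7 and 57.1% in KO and 57.8, 60.9 and 58.5% in WT, groups that nearly touch (difference -2.51 points, SE 0.953, adjusted p = 0.0239, under the 5 points of the call), and without WT replicate 2 it was -1.60 points (adjusted p = 0.136). Of the 8 Pax genes, 5 were called lower, with a median of -5.47 points.

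**Figure D2:**
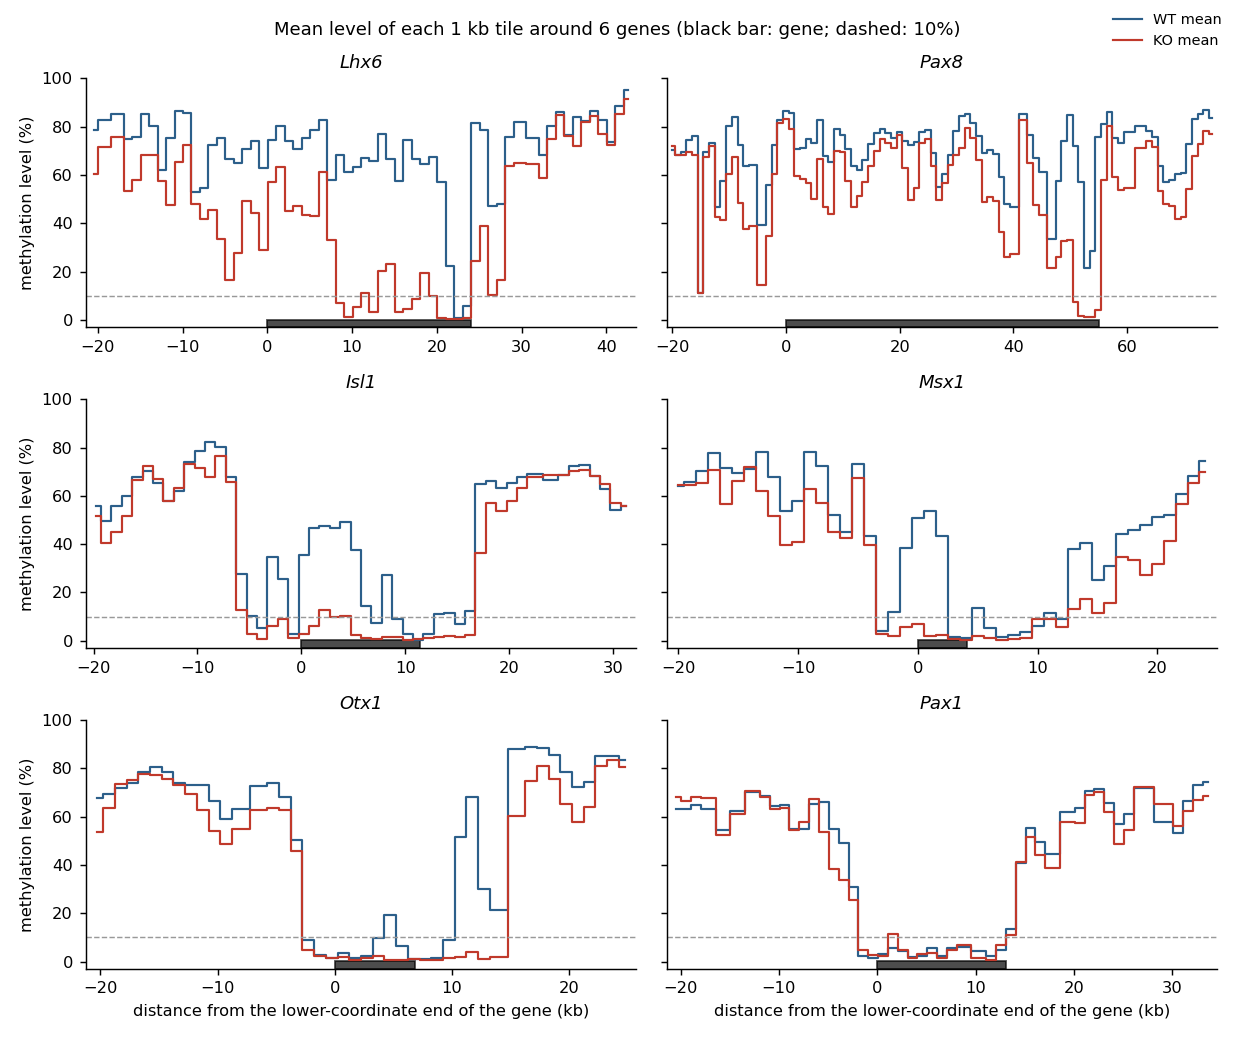
Mean level of each 1 kb tile (y axis, percent) in WT (blue) and KO (red) by distance from the lower-coordinate end of the gene (x axis, kb) at 6 genes; the black bar is the gene and the dashed line marks 10%. At Lhx6, Pax8, Isl1, Msx1 and Otx1 whole blocks of tiles with intermediate or high WT levels were near 0 in KO, while at Pax1 the curves lay close together.

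Msx1, a factor of limb, tooth and palate development (chromosome 5, 37820491 to 37824585, minus strand), was at 39.3, 39.6 and 39.0% in KO and 54.5, 54.1 and 50.9% in WT over 36 surrounding tiles. The difference was -13.9 points (SE 1.10, limma, adjusted p = 4.51e-08), with no overlap. A tile inside the gene (chr5:37821001-37822000) was at 1.86% ± 0.819 in KO and 53.6% ± 3.37 in WT. Msx2, its paralog in skull and limb, had a run of 4 tiles in the gene (chr13:53467001-53471000) at 5.29% ± 0.440 in KO and 26.0% ± 3.71 in WT. With Barhl1, a hearing and cerebellum factor, 3 of the 4 Msx and Barhl genes were called, and Barhl2 was not (difference -4.11 points).

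Among the head and brain patterning genes Otx, Emx, En and Gbx, 4 of 7 were called lower. Gbx2, which sets the border of midbrain and hindbrain (chromosome 1, 89927962 to 89931176, minus strand), had a surrounding level of 44.4, 46.3 and 47.0% in KO and 59.1, 58.3 and 58.1% in WT (difference -12.6 points, SE 0.954, limma, adjusted p = 3.04e-08). Otx1, a forebrain and inner ear factor (chromosome 11, 21994764 to 22001651), was at 55.6, 59.7 and 56.0% in KO and 71.8, 68.7 and 67.3% in WT (difference -12.2 points, SE 1.23, adjusted p = 4.77e-07). Beside Otx1, a block of 4 tiles outside the gene (chr11:22005001-22009000) was at 1.28, 2.57 and 2.25% in KO and at 52.2, 38.4 and 38.0% in WT. The WT samples differed from each other at this block by more than at most others, yet the lowest of them was far above the highest KO sample. Emx2, of forebrain and urogenital development, was at 49.8, 50.4 and 51.4% in KO and 53.0, 53.6 and 54.4% in WT, a narrow gap (difference -3.13 points, adjusted p = 0.00522, under the 5 points of the call).

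Dlx genes, which act in craniofacial bone and forebrain interneurons and come in pairs, were called at 4 of 4 genes. Dlx1 (chromosome 2, 71528113 to 71533981, plus strand) was at 47.5, 47.5 and 45.6% in KO and 60.1, 58.9 and 58.8% in WT (difference -12.4 points, SE 0.928, limma, adjusted p = 2.74e-08). Its gene span held 0 surrounding tiles, so all of this difference lay in the flanks, which it partly shares with Dlx2. Nkx genes, factors of neural tube, gut and heart, were called at 5 of 5 genes, with a median of -6.41 points. In Nkx2-2, which specifies ventral neurons and islet cells, 4 tiles of the gene (chr2:147180001-147184000) were at 2.26, 1.17 and 0.986% in KO and at 25, 29.6 and 26.5% in WT.

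Of the Pitx, Gsc and Alx genes, 2 of 3 were called: Gsc, an organizer gene of gastrulation, and Alx4, a factor of limb and skull. One tile at the start of the Alx4 span (chr2:93645001-93646000) was at 0.417, 0.714 and 1.53% in KO and at 61.7, 57.6 and 51.9% in WT. Pitx1, which gives the hindlimb its identity, was at 52.7, 52.0 and 51.1% in KO and 56.1, 53.2 and 54.4% in WT (difference -2.62 points, limma, adjusted p = 0.0223). Of Six2, Six3 and Six6, factors of eye, forebrain and kidney, Six3 was called. Of the bHLH genes, 1 of 4 was called, Sim2, and Olig2, of oligodendrocytes and motor neurons, had overlapping groups at 54.9, 52.5 and 53.8% in KO and 59.5, 55.7 and 54.8% in WT (difference -2.88 points, adjusted p = 0.0364), and -1.45 points without WT replicate 1 (adjusted p = 0.179).

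When each sample was scaled to one mean level over the table, which moves the median difference of all genes from -5.91 to -0.248 points, 13 of the 46 genes kept a call of lower, against 17.1% of all genes, and 0 were called higher. These 13 were Alx4, Dlx1, Dlx6, Gbx2, Isl1, Isl2, Lhx1, Lhx6, Msx1, Nkx6-1, Otx1, Pax8 and Sim2. On that scale Pax1 (2.16 points), Pitx1 (1.90), Olig2 (1.60) and Emx2 (1.08) turned to the other sign without passing the test, and over all genes 3475 were lower and 669 higher, against 12146 and 0 without scaling.

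Within the core the levels were low in both groups and lower in KO. Averaged over the 589 core tiles, the samples were at 2.63, 2.49 and 2.37% in KO and at 4.08, 3.70 and 3.60% in WT, without overlap. Of the 44 genes with at least 3 core tiles, 22 were called lower at limma's adjusted p under 0.05 and 0 higher (0 higher also at an unadjusted p under 0.05), against 30.4% lower over all 7509 genes tested. The median difference was -1.27 points, against -0.936 over all genes. Lhx6, with 2 core tiles, and Pax8, with none, could not be tested. Dlx1 and Dlx2 have equal core values in every sample, so 1 measurement stands for 2 of the genes called. Their widths, counted below, are equal too.

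Core tiles were also split by their WT mean, a split that itself limits how far a tile can fall. In the 160 core tiles with a WT mean of up to 2%, KO and WT had mean levels of 1.33 and 1.32%. In the 267 tiles at 2 to 5%, the means were 2.13 and 3.20%, and in the 162 tiles at 5 to 10% they were 4.26 and 7.22%. All core tiles of the table had the same pattern, with KO and WT means of 1.06 and 1.04%, 2.29 and 3.33%, and 4.78 and 7.35% in these classes. With the core limited to tiles under 5% in WT, 0 of 43 genes were called by limma (17 were lower at an unadjusted p under 0.05), against 0.206% of all genes. Since WT values define the core, each WT sample in turn was also used to set the core and left out of the test, which gave 16, 19 and 23 genes called lower and 0 higher, against 27.1, 28.5 and 32.3% of all genes.

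**Figure D3:**
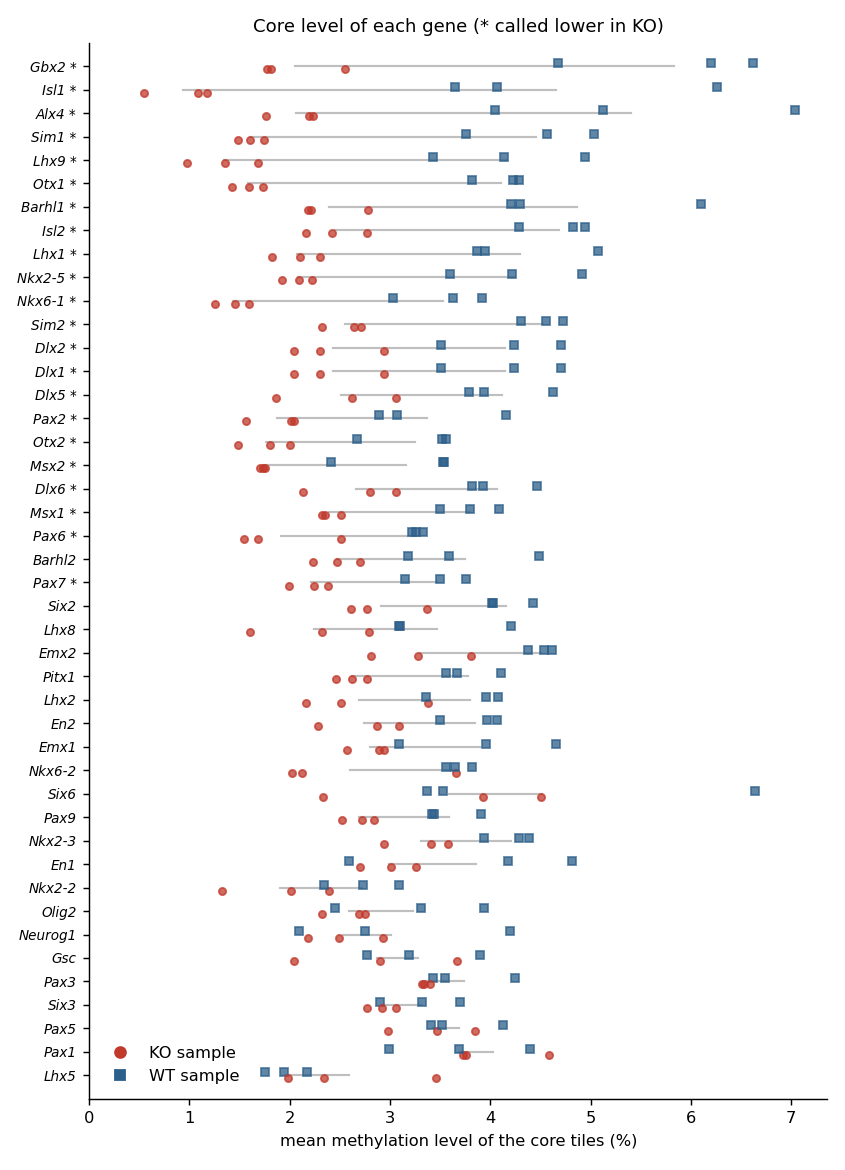
Mean methylation level of the core tiles (x axis, percent) of the 44 genes with at least 3 core tiles (y axis), with one point for each KO (circles) and WT (squares) sample and a grey line between the group means. The asterisk marks the 22 genes called lower, and Lhx5 and Pax1 at the bottom are the genes whose KO mean was above the WT mean.

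Gbx2 had the largest fall of the core level, with 1.78, 2.55 and 1.81% in KO and 6.62, 6.20 and 4.67% in WT (difference -3.78 points, SE 0.605, limma, adjusted p = 0.00323). Isl1 was at 1.17, 0.548 and 1.08% in KO and 6.26, 4.07 and 3.65% in WT (difference -3.72 points, SE 0.645, adjusted p = 0.00406). Alx4 was at 2.19, 1.76 and 2.23% in KO and 5.12, 4.04 and 7.04% in WT over only 4 tiles (difference -3.34 points, adjusted p = 0.00893). In these 3 genes the highest KO sample stayed below the lowest WT sample. Sim1, a hypothalamus factor, was at 1.48, 1.74 and 1.60% in KO and 4.57, 3.76 and 5.03% in WT (difference -2.85 points, adjusted p = 0.00323). Lhx9, a gonad and limb factor, was at 1.68, 1.36 and 0.978% in KO and 4.94, 3.43 and 4.13% in WT (difference -2.83 points, adjusted p = 0.00377). Otx1 was at 1.59, 1.43 and 1.73% in KO and 4.29, 4.23 and 3.81% in WT (difference -2.53 points, adjusted p = 0.00283). The groups were apart in these genes too, but all the genes named here were chosen for the largest falls. The KO samples all lay below the WT samples at 72.7% of the patterning genes tested for the core, against 45.5% of all genes tested.

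Lhx5 and Pax1 were the 2 genes whose core mean was higher in KO, and in both the groups overlapped. Lhx5, a hippocampus and hypothalamus factor, was at 3.46, 1.99 and 2.34% in KO and 1.95, 1.75 and 2.17% in WT (difference 0.639 points, limma, adjusted p = 0.292). Pax1 was at 4.59, 3.76 and 3.73% in KO and 4.40, 2.99 and 3.69% in WT (difference 0.337 points, adjusted p = 0.660), and its difference was -0.0148 points without WT replicate 2. Pax5 (-0.252 points, adjusted p = 0.707), Six3 (-0.388, 0.507), Pax3 (-0.390, 0.533) and Gsc (-0.413, 0.577) had the smallest falls. The count of 22 genes was 14 without KO replicate 1 (31.8%, against 23.6% of all genes), 12 without KO replicate 3 (27.3%, against 17.6%) and 11 without WT replicate 1 (25%, against 23.2%). Without WT replicate 1 the share was thus near the background. The genes that remained called whichever sample was left out were 9: Barhl1, Gbx2, Isl1, Isl2, Lhx1, Nkx6-1, Otx1, Sim1 and Sim2. Without WT replicate 1 Lhx9 lost its call (-1.97 points, adjusted p = 0.109), as did Alx4 (-1.56 points, adjusted p = 0.162), which also lost it with the core set by WT replicate 3 (-1.09 points, adjusted p = 0.181).

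The unmethylated width of a window, its number of tiles under 10% whether adjoining or not, was mostly larger in KO. The number of tiles under 10%, counted in each sample on its own so that neither group picks the tiles, was 723, 724 and 723 over all windows in KO and 570, 598 and 605 in WT, a total 22.4% larger in KO. Over the whole table it was 40782, 41888 and 40924 in KO and 26994, 27381 and 27483 in WT, 51.0% larger. Of 45 genes tested, 19 (42.2%) were called wider at limma's adjusted p under 0.05 with a gain of at least 2 tiles and 0 narrower (0 also at an unadjusted p under 0.05), against 33.5% wider over 7923 genes. Pax8, whose mean over all 6 samples was under 3 tiles, was not tested. The median gain was 2.67 tiles of 1 kb, against 1.33 over all genes, at a median width in WT of 12.3 tiles against 4.

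**Figure D4:**
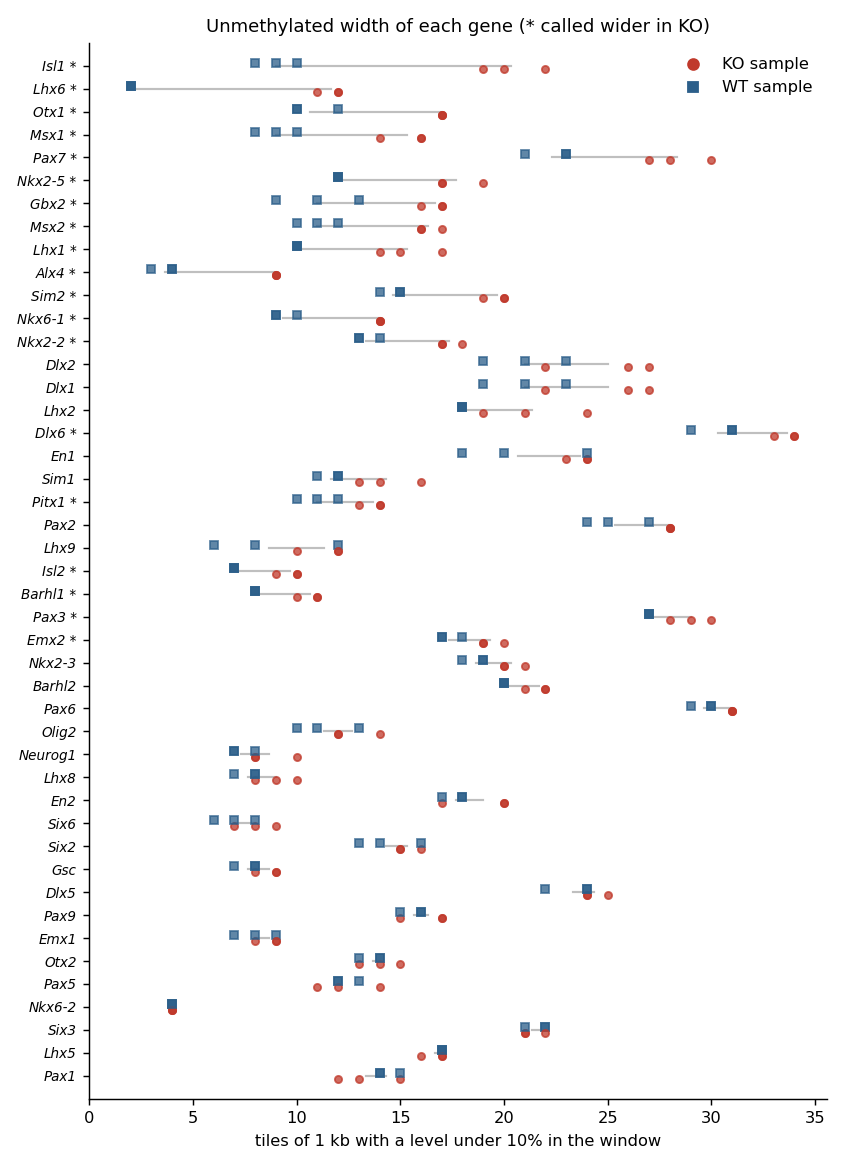
Number of 1 kb tiles under 10% in the window of each gene (x axis) for the 45 genes tested (y axis), with one point for each KO (circles) and WT (squares) sample; samples with equal counts lie on top of each other. Isl1 and Lhx6 at the top gained most, an asterisk marks the 19 genes called wider, and at Pax1, Lhx5 and Six3 at the bottom the KO mean was lower.

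Isl1 went from 8, 10 and 9 tiles in WT to 22, 19 and 20 in KO, a gain of 11.3 tiles (SE 0.998, limma, adjusted p = 0.00143). Lhx6 went from 2 tiles in every WT sample to 12, 11 and 12 in KO, a gain of 9.67 tiles. Its WT width was under the mean of 3 tiles that the test needed. Lhx6 was therefore tested, and counted among the 19 genes called, only through its KO samples. Msx1 went from 8, 9 and 10 to 16, 14 and 16 (adjusted p = 0.00523), and Otx1 from 10, 10 and 12 to 17 in each KO sample (adjusted p = 0.00210), a gain of 6.33 tiles at both. In these 4 genes, chosen for the largest gains, the groups did not overlap. The KO samples all lay above the WT samples at 55.6% of the patterning genes tested for width, against 48.0% of all genes tested. Against the majority, Pax1 had 15, 12 and 13 tiles in KO and 15, 14 and 14 in WT (difference -1, adjusted p = 0.434). Lhx5 had 16, 17 and 17 tiles against 17 in each WT sample (adjusted p = 0.440), and Six3 had 21, 21 and 22 against 22, 22 and 21 (adjusted p = 0.606). These 3 differences were within 1 tile. Nkx6-2 had 4 tiles in all 6 samples.

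Tile by tile, 465 of the 2794 tiles (16.6%) were lower in KO at limma's adjusted p under 0.05 and at least 10 points, against 16.2% of all tiles. Core tiles, which are a larger share of these windows than of the table, could not pass the call, and among surrounding tiles alone the shares were 21.1% here and 16.4% over all tiles. Higher in KO were 2 of the 2794 tiles (1 without any one of the KO replicates and 3 without WT replicate 2). By the same call, 1555 of all 1954255 tiles were higher, so such tiles were not particular to these windows. A core tile has less than 10 points to lose, and none of the 465 was one. Of the tiles at 10% or more in WT, 139 were under 10% in KO, at 12 tiles around Isl1, 10 around Lhx6 and 7 each around Msx1 and Pax7, the muscle stem cell factor. Of these, 18 had been at 50% or more in WT, 9 of them at Lhx6, 3 at Pax8 and 2 each at Alx4, Msx1 and Otx1. Such crossings were not counted over the whole table, so no background share stands beside them. The 2 higher tiles lay at Pax5 and near En1, a midbrain and limb factor. The Pax5 tile (chr4:44700001-44701000) was at 60.5, 50.7 and 51.4% in KO and 35.8, 40.1 and 43.0% in WT (adjusted p = 0.0170). The En1 tile (chr1:120620001-120621000) was at 53.7, 56.3 and 57.8% in KO and 44.9, 37.8 and 45.2% in WT (adjusted p = 0.0260).

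By distance from the core, the difference was largest just outside it. Inside the core the last kb before the edge was at 3.25% ± 0.0702 in KO and 4.99% ± 0.375 in WT. In the first kb outside, the levels were 18.0% ± 0.0259 and 27.7% ± 0.900 (difference -9.67 points), and in the second kb they were 38.0% ± 0.180 and 50.6% ± 0.953 (-12.6 points). From there the difference shrank: at a distance of 3 kb it was -9.72 points, over 4 to 5 kb -7.10, over 6 to 10 kb -5.90 and over 11 to 20 kb -5.65 points. Around the other protein-coding genes it went from -11.9 points in the first kb to -11.9 in the second and -7.13 at 11 to 20 kb, a decline of the same kind. In WT the second kb outside the core was at 50.6% at the patterning genes and at 72.7% around other genes. These are descriptions over tiles, and the difference between the sets of genes was not tested.

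**Figure D5:**
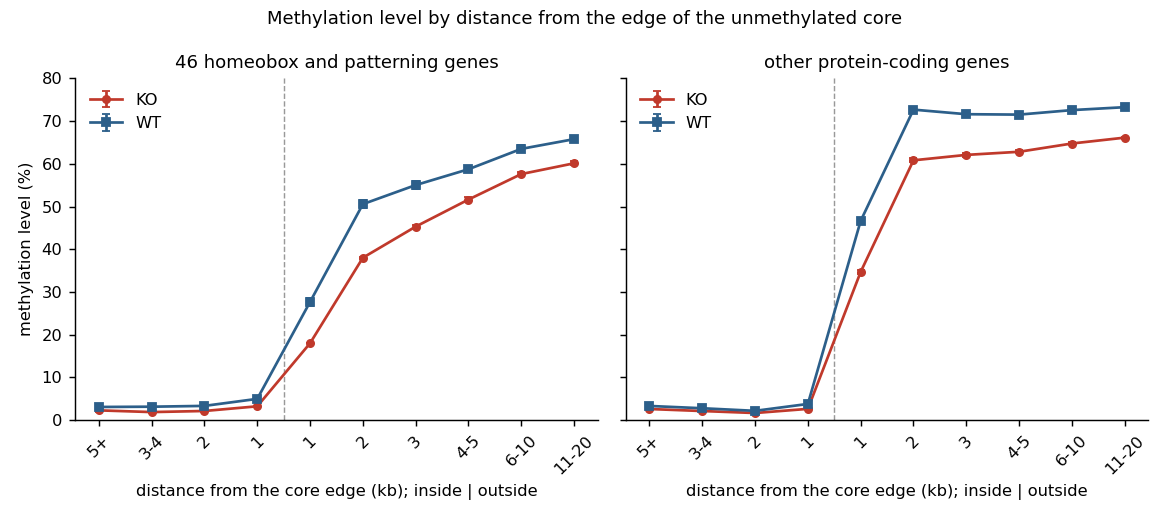
Mean methylation level (y axis, percent) of tiles by distance from the nearest edge of the core (x axis, kb, inside to the left of the dashed line and outside to the right) around the 46 genes and around all other protein-coding genes. Points are means and bars SDs of 3 KO (red) or 3 WT (blue) samples, most bars being smaller than the points; around the 46 genes the gap between the curves was widest at 2 kb outside the core.

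Inside the gene span, the fall was larger than in the flanks at several genes. At Msx1, the 3 surrounding tiles inside the gene were at 3.64% in KO and 49.3% in WT, while the 33 tiles of the flanks were at 42.5 and 53.5%. At Lhx6 the 23 tiles inside were at 23.5 and 66.8%, and the 37 outside at 58.0 and 75.6%. At Isl1 the 8 tiles inside were at 5.86 and 38.1%, and the 35 outside at 50.5 and 56.5%. Sim2 went the other way, with -6.61 points inside and -14.0 points in the flanks. So did others, such as Emx1 (-2.69 and -8.85 points) and Pax9 (-3.49 and -6.09 points). Over the 20 genes with at least 5 surrounding tiles inside and outside, the median difference was -6.43 points inside and -6.07 in the flanks, and over all 15953 such genes it was -5.58 and -6.32. The fall was larger inside at 13 of these 20 genes (65%), against 45.4% of all such genes. Msx1, with 3 tiles inside, is not among the 20. Across the 46 genes, the number of core tiles and the difference of the surrounding level had a Spearman correlation of 0.267, a description of points that share the same 6 samples.

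The same counts were made for related genes. Over all genes tested, 59.7% were called lower in the surrounding tiles, 30.4% lower and 0.173% higher in the core, and 33.5% wider. Of 66 other homeobox and patterning genes, 40 (60.6%) were called lower in the surrounding tiles. Of 63 tested for the core, 18 (28.6%) were lower and 1 was higher. For the width, 26 of 64 (40.6%) were wider. The shares called lower were thus close to those over all genes. The gene higher in the core was Atoh1, a factor of hair cells and cerebellar neurons named here after its value was seen, at 4.65% ± 0.191 in KO and 3.01% ± 0.708 in WT (limma, adjusted p = 0.0367). By smallest p these included Six5, Lbx2 and Tlx3 for the surrounding level, at 47.7% ± 1.08, 39.3% ± 0.937 and 47.3% ± 0.903 in KO against 62.7% ± 0.643, 57.4% ± 2.34 and 64.4% ± 2.41 in WT (limma, adjusted p = 4.12e-09, 8.64e-09 and 9.56e-09). Of the HoxA, HoxC, HoxD and Evx genes, which set position along the body axis, 28 of 30 (93.3%) were lower in the surrounding tiles. Their median there was -10.7 points, and 19 of 31 (61.3%) were lower in the core. Hoxa5 was at 3.48% ± 0.263 in KO and 41.3% ± 2.78 in WT in its surrounding tiles (adjusted p = 2.31e-10). These genes sit in clusters and share windows. Of the 6 Iroquois genes, which pattern heart and neural tissue, 3 were lower in the surrounding tiles, 3 in the core and 3 were wider, Irx3 having the smallest p (48.6% ± 1.99 in KO, 64.0% ± 0.898 in WT, adjusted p = 1.17e-08).

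Genes that encode Polycomb proteins, which hold patterning genes silent, were also read in these windows. Of 29, 25 (86.2%) were called lower in the surrounding tiles, with a median of -10.9 points, against 59.7% of all genes. In the core 13 of 22 (59.1%) were lower, against 30.4% of all genes. For the width, 12 of 23 (52.2%) were wider, against 33.5%. Bmi1, a subunit of the complex PRC1, had a surrounding level of 34.5% ± 1.97 in KO and 61.6% ± 1.55 in WT (limma, adjusted p = 7.07e-10), and Rybp, another PRC1 subunit, 58.0% ± 0.921 and 76.2% ± 0.768 (adjusted p = 4.35e-10). The data hold methylation only, so the expression of these and of the patterning genes was not measured.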

How the data were processed

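Sorted cells were sequenced by T-WGBS (bisulfite sequencing of tagmented DNA), from 30 ng of DNA and 3 libraries a sample, per the labels' protocols. The submitters' processing notes name the aligner BWA (0.7.8) and the build mm10. Per the file headers, the authors deposited for every sample and 1 kb tile a fraction, the methylation level. The sources used here do not name the methylation caller, any smoothing or a coverage filter, and without read counts depth is unknown. Smoothing would make neighbouring tiles alike.

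Fractions were multiplied to percent, and tiles on chromosomes 1 to 19 were used. All 6 samples, grouped by the genotype label, entered each test: limma's moderated test (version 3.58.1, in R 4.3.3), its variance following a trend on mean level, adjusted by the Benjamini-Hochberg method over all genes or tiles tested. Genes needed 3 core tiles, 5 surrounding tiles or a mean width of 3 tiles over all 6 samples. Widths are whole numbers, so a small spread can give very small p-values. Runs merge called tiles with a gap of at most 1 tile, and their p is that of the best tile. Tables and plots were made in Python 3.11.15 (pandas 2.3.3, numpy 2.4.6, matplotlib 3.10.9), and the tests were tested on simulated data.

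Genes with full values were the 6 highest and 6 lowest core differences, the 8 largest falls and 4 smallest differences of the surrounding level, the 4 largest gains of width and any gene against the majority; up to 3 genes of other lists were taken by smallest p. Further genes, tiles and runs were named after their values were seen. The 46 genes and the other lists were chosen with earlier results of these data known.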

Additional observations from a re-analysis of the deposited data

How the results depend on the processing

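No alternative gave a gene called higher in the core or surrounding tiles, or narrower. The 22 genes lower in the core (against 30.4% of all genes) became 0 with a core under 5% in WT (all genes 0.206%), 13 with 1 core tile enough (15.1%), 13 with samples scaled to one mean level (20.9%) and 11 with a minimum of 2 points (14.8%), and they ranged from 11 to 15 with one sample left out. The causes were not tested. With the core set by the KO mean they became 37 of 46 (73.6%), but that setting picks tiles for low KO values and so favours a call of lower. The 29 genes lower in the surrounding tiles became 12 of 20 tested within the gene span alone (all genes 55.8%), 13 after scaling (17.1%), 46 with no minimum difference (87.6%) and 11 with 10 points (18.3%), and ranged from 27 to 32 with one sample left out. The 19 wider genes ranged from 15 to 19 with one sample left out. The 465 lower tiles became 161 at 20 points and 258 after scaling (379 to 424 with one sample left out). The 2 higher tiles became 5 at 5 points, 0 at 20 points and 20 after scaling (1 to 3). Numbers did not pair the samples (correlation of deviations -0.00321 to 0.011 over 3 pairs). With a replicate block the counts were 19, 29, 14 and 454, and 2 higher tiles. The width, tile and replicate block counts are given here without shares over all genes or tiles. Whether they move with the whole table cannot be read from them.

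Reversed values were all of genes that were not called. The core of Pax1 was at -0.0148 points with the core set by WT replicate 2 or without it (up to 0.692 with another sample left out) and -0.0824 with the core set by the KO mean, and that of Pax5 at 0.0284 with the core set by WT replicate 2 and 0.207 after scaling. After scaling, the surrounding level was 2.16 at Pax1, 1.90 at Pitx1, 1.60 at Olig2 and 1.08 at Emx2. The width of Six3 was 0.333 tiles with 50 kb flanks or a threshold of 5% and 0.667 at 15%. Of the single genes' values under an alternative, 246 of 262 for the core, 235 of 243 for the surrounding level and 81 of 84 for the width kept direction and call. Levels without read counts set an unknown floor for differences of 1 to 2 points in the core.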

Other observations

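A few tiles around the patterning genes moved towards higher methylation in KO. Of the 589 core tiles, 4 were higher in KO at limma's adjusted p under 0.05, by 3.71 to 5.79 points, at Pax3, Pax1, Pax5 and Pax7, against 73 that were lower. These are 0.679 and 12.4% of the core tiles, against 0.242% higher and 10.4% lower over all 26874 core tiles of the table. All 4 lie in windows of Pax genes, which was seen in the data and not tested. These windows held 14 (Pax1), 27 (Pax3), 12 (Pax5) and 23 (Pax7) core tiles, against a median of 12 over the 46 genes. The Pax3, Pax5 and Pax7 tiles lie in the flanks, outside the gene. The Pax1 tile (chr2:147363001-147364000), which lies inside the gene, was at 7.48, 13.3 and 13.8% in KO and 3.91, 4.10 and 9.13% in WT (adjusted p = 0.0262), so the groups overlapped. The Pax7 tile (chr4:139851001-139852000) was at 10.7, 13.0 and 13.7% in KO and 7.45, 6.18 and 7.72% in WT (adjusted p = 0.0136). The Pax5 tile (chr4:44715001-44716000) was at 11.8, 8.86 and 14.3% in KO and 4.69, 8.55 and 4.49% in WT (adjusted p = 0.0162). The Pax3 tile (chr1:78199001-78200000) was at 5.16, 6.46 and 8.09% in KO and 3.79, 3.28 and 1.51% in WT (adjusted p = 0.0425). Over all windows, 9 tiles were under 10% in WT and at 10% or more in KO, beside the 139 that crossed the other way. Neither was counted over the whole table.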
